A study of Mus musculus with 2 samples.

Results

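The Notch pathway was followed in fibro-adipogenic progenitors (FAPs), which are stromal cells of skeletal muscle with the capacity to form fat cells, through 10 genes: the receptors Notch1, Notch2 and Notch3, the ligand Jag1, the related gene Dlk2, the target genes Hes1, Hey1, Hey2 and Heyl, and the feedback inhibitor Nrarp. They were taken by gene symbol from the 44291 genes listed in each of 2 RNA-seq libraries, and all 10 were found. Both libraries came from primary FAPs of mice with the genotype WT that were cultured for adipogenic differentiation in DMEM with 20% FBS, and the inducing agents in both were insulin at 10 µg/ml, dexamethasone at 0.25 µM and IBMX at 0.5 mM. The cells of the first library had received platelet-rich plasma (PRP) and those of the second only vehicle, and they are called PRP and control here. PRP is the name in the labels, while the study itself speaks of exosomes isolated from PRP, and the labels give neither the age of the mice nor the time of culture. Each group has 1 library, so every difference is one between 2 libraries, has no replicate check and carries no p-value.

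Notch receptors are cut by an ADAM protease and then by γ-secretase once a Jagged or Delta-like ligand on a neighbouring cell has bound them. The freed intracellular part enters the nucleus, joins the DNA-binding protein RBPJ and a Mastermind co-activator, and switches on the HES and HEY repressors and Nrarp. In muscle the pathway is best known for holding satellite cells quiescent, and in mesenchymal progenitors it has been linked to restraint of fat formation.

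The values are FPKM, that is read numbers adjusted for the length of the exons and for sequencing depth. The assigned reads came to 40120843 with PRP and 34139741 in the control, a ratio of 1.18, and mitochondrial genes took 2.06% and 3.70% of the summed FPKM. A gene's reads could be worked back from FPKM for all 10 genes, and a fragment was taken as 2 reads. Each ratio below is PRP FPKM over control FPKM with the exact Clopper-Pearson 95% interval that the fragment numbers give. These intervals cover counting error only and say nothing about how much cultures differ.

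The cells carried the markers of their label. Vim, a mesenchymal intermediate filament gene and the highest of the 8 FAP markers, had an FPKM of 593 with PRP and 610 in the control, and Pdgfra, the receptor by which FAPs are usually recognised, had 19.8 and 28.0. All 8 FAP markers were lower in the PRP library, each with an interval below 1, and they summed to 1050 and 1286. Where the mean FPKM reached 1, 49.1% of all genes were lower, and 26.1% of those with whole reads had an interval below 1. Intervals of high genes are narrow, and that of Vim excluded 1 at a ratio of 0.973 (0.961 to 0.985). On the log2(FPKM + 1) scale 2 of the 8 were past 1.5-fold lower, beside 4.57% of all genes at that mean FPKM. Most markers of other cells that use Notch genes were low but not absent. The 10 endothelial markers summed to 9.76 and 5.57, led by Tek at 4.73 and 3.56 and Kdr at 4.23 and 1.499, with Pecam1 at 0.19 and 0.05, Cdh5 at 0.09 and 0.10 and Cldn5 at 0 in both. Kdr, a receptor for vascular growth factor, had a ratio of 2.82 (2.43 to 3.28), and the interval lay above 1 for 5 of the endothelial markers and below 1 for none. Over all genes above 0 with whole reads, it lay above 1 for 14.6% and below 1 for 13.9%. Erg at 0.014 and 0.068 and Tie1 at 0 and 0.024 were lower with PRP, from at most 8 reads in a library. The 8 mural markers summed to 21.8 and 15.5, most of it the smooth muscle myosin Myh11 at 16.7 and 9.86. Myh11 was not low, since it stood above 87.9% of genes with reads, and its ratio was 1.69 (1.58 to 1.81). The interval lay above 1 for 1 mural marker, Myh11, below 1 for 0, and included 1 for 6. Rgs5 had 0.29 and 0.30 and Higd1b 0 in both. Of 6 myogenic markers 5 were listed, and they summed to 3.59 and 3.75, nearly all from Ckm at 3.56 and 3.72, with Pax7 and Myog at 0 in both. The 6 macrophage markers summed to 10.3 and 10.6, a near-equal sum in which Lyz2 at 4.91 and 7.57, with a ratio of 0.648 (0.512 to 0.820), and Cd68 at 4.56 and 2.31, with a ratio of 1.98 (1.41 to 2.82), differed in opposite directions. The part of these cells in the values of the Notch genes was not tested, and fewer cells of a type and less RNA per cell cannot be told apart in bulk RNA.

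Promoter sequences are shown for the genes in which the RBPJ core motif can be looked for beside a value. The motif TGGGAA, with its reverse complement TTCCCA, was searched in windows from 250 bases before to 50 after the RefSeq start (GRCm38.p6), and the longer form GTGGGAA overlaps it. TGGGAA was in 8397 of 32851 windows (25.6%) and GTGGGAA in 2097 (6.38%). RefSeq windows matched 7 of the 10 genes, 8 windows in all since Dlk2 has 2, and those of Hes1, Hey1 and Heyl were not in the table. Of the 8 windows, that of Hey2 alone held TGGGAA. The Hey2 window (chr10:30842734-30843033, minus strand) held it 2 times, 207 and 3 bases before the start and each time as part of GTGGGAA. The Nrarp window (chr2:25180508-25180807, plus strand) is set beside it as a known target gene whose window did not hold the letters, which says only that they are not in these 300 bases. The Lfng window (chr5:140607091-140607390, plus strand) is shown because Lfng, a modifier of Notch receptors, had the largest difference of the pathway. It held TGGGAA 2 times, 135 and 108 bases before the start, the nearer one as part of GTGGGAA. Windows of Rbpj and of Rfng, another modifier of Notch receptors, were also searched and are not shown. Both Rbpj windows held TGGGAA and the Rfng window did not. Any link between the motif and the direction of a gene was not tested. Capitals mark TGGGAA or TTCCCA, 5′ to 3′ on the strand of the gene.
Hey2: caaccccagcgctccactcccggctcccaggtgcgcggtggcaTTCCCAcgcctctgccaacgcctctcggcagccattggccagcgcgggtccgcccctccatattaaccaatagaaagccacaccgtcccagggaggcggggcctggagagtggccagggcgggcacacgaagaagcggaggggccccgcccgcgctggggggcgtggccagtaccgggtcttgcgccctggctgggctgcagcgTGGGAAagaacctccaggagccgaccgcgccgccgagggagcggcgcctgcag
Nrarp: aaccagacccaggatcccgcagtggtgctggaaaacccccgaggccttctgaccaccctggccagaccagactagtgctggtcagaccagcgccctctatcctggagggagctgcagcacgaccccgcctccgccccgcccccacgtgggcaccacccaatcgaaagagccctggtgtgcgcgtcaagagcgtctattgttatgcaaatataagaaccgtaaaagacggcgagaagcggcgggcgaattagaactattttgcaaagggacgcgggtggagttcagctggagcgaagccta
Lfng: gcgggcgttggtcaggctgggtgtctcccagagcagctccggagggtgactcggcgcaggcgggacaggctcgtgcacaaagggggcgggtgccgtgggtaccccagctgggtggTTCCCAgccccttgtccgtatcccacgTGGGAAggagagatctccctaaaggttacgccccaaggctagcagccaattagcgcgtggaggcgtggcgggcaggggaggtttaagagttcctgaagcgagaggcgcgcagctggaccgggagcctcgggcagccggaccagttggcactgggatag

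The study names the microRNAs let-7f and miR-16 as cargo of the exosomes, so their mouse mature forms in RefSeq were compared with the longest 3′UTR that GENCODE M21 gives each gene. Capitals mark the seed, bases 2 to 8, and the families do not share it.
mmu-let-7f-5p: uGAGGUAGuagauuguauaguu
mmu-miR-16-5p: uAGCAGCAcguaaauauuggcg

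The seed match of let-7f, CTACCTC, was in 2132 of 21173 genes with a 3′UTR (10.1%) and in 1 of the 10 Notch genes, Nrarp. The match of miR-16, TGCTGCT, was in 4694 genes (22.2%) and in 2 of the 10, Dlk2 and Nrarp. The sites of Dlk2 lie at chr17:46302906-46302927 and chr17:46302956-46302977, and those of Nrarp at chr2:25182929-25182950 for miR-16 and chr2:25181505-25181526 for let-7f, all on the plus strand. Capitals mark the 7 bases that pair with the seed.
Dlk2, first miR-16 match: ggtcctggccacggTGCTGCTg
Dlk2, second miR-16 match: gccccactggacccTGCTGCTa
Nrarp, miR-16 match: ccccttcgtagaagTGCTGCTg
Nrarp, let-7f match: taccttcccgccaaCTACCTCg
Neither match was in the 3′UTR of Notch1, Notch2, Notch3, Jag1, Hes1, Hey1, Hey2 or Heyl. A match is a description of the letters and not of regulation.

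Among the receptors, Notch2 was by far the highest. Notch2 (ENSMUSG00000027878, chr3:98013527-98150361, plus strand, GRCm38) had an FPKM of 4.48 with PRP and 4.61 in the control, from 1937 and 1698 reads. The libraries were within counting error of each other, with a ratio of 0.971 (0.884 to 1.07), the narrowest interval of the genes followed. The gene model Gm42820 lies on the same strand over 5.02% of the Notch2 exons and had 219 and 203 reads.

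Notch1, the receptor best studied in blood and vessel development, was low but higher in the PRP library. Notch1 (ENSMUSG00000026923, chr2:26457903-26516663, minus strand) had an FPKM of 0.613 with PRP and 0.442 in the control, from 350 and 215 reads over 14232 bases of exon. Its ratio was 1.39 (1.08 to 1.78), so the difference was larger than counting error. The summed endothelial markers were also higher in that library, at 9.76 and 5.57, and their part in the value of Notch1 was not tested. Genes on the other strand, 0610009E02Rik and Gm13568, cover 9.76% of its exons, and whether reads were counted by strand is not given in the sources used here.

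Notch3, a receptor typical of mural cells, was lower in the PRP library, within counting error. Notch3 (ENSMUSG00000038146, chr17:32120820-32166852, minus strand) had an FPKM of 0.792 with PRP and 0.974 in the control, from 257 and 269 reads. Its ratio of 0.813 (0.633 to 1.04) included 1. The antisense gene Gm17276 covers 6.03% of its exons. Notch4, mainly an endothelial receptor and not among the 10 genes, had 0.136 and 0.164, with a ratio of 0.832 (0.441 to 1.57).

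The share of Notch2 among the receptors was nearly equal in the libraries. The 4 receptors summed to an FPKM of 6.02 with PRP and 6.19 in the control. Notch2 made up 74.4% and 74.5% of that sum, Notch3 13.2% and 15.7%, Notch1 10.2% and 7.15%, and Notch4 2.26% and 2.64%. Notch1 and Notch3 thus stood closer to each other in the PRP library, where their counting intervals overlapped, than in the control library, where they did not.

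**Figure D1:**
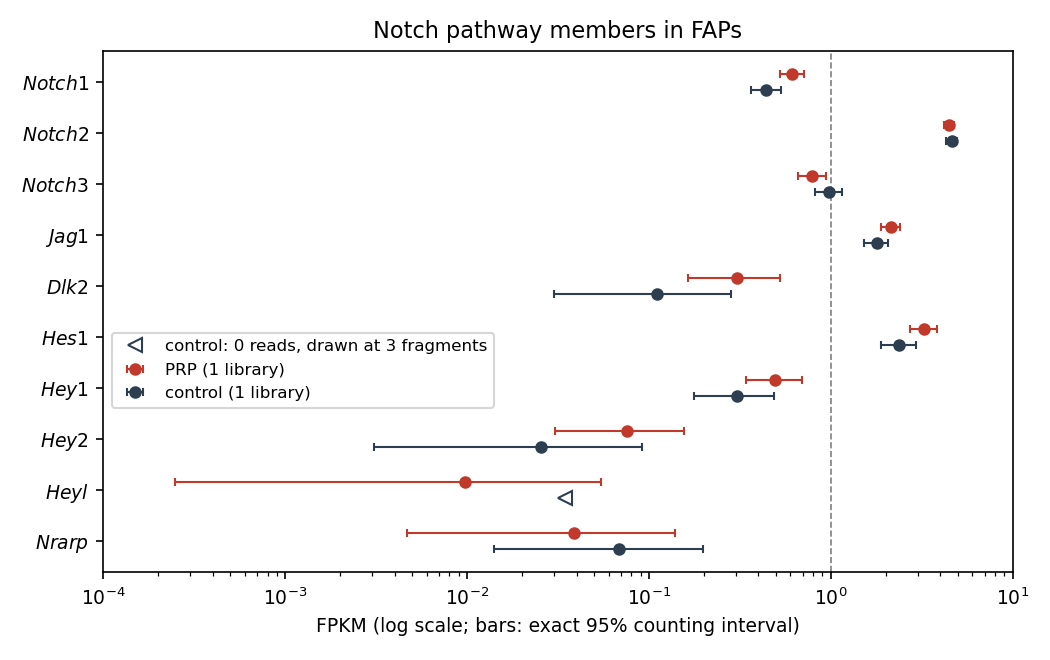
FPKM on a log axis of the 10 Notch genes in the PRP and control libraries, with bars for the exact 95% Poisson interval of the fragments in each library. Notch2, Hes1 and Jag1 lie above 1 in both libraries, and Heyl had 0 reads in the control library.

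Jag1 was by far the highest of the canonical ligands. Jag1 (ENSMUSG00000027276, chr2:137081456-137116644, minus strand), which encodes a membrane-bound ligand, had an FPKM of 2.13 with PRP and 1.78 in the control, from 499 and 355 reads. Its ratio of 1.20 (0.983 to 1.46) included 1. It made up 89.8% with PRP and 89.95% in the control of the summed FPKM of the 5 Jagged and Delta-like ligands, sums of 2.38 and 1.98. The other ligands Jag2, Dll1, Dll3 and Dll4 were no higher than 0.109, the level of Jag2 in the control, and Dll4 had 2 reads with PRP and 0 in the control.

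Dlk2 encodes a membrane protein of the Delta-like family that lacks the domain by which canonical ligands bind Notch, and it is known as a modulator of adipogenesis in cultured cells. Dlk2 (ENSMUSG00000047428, chr17:46297421-46303271, plus strand) had an FPKM of 0.307 with PRP and 0.111 in the control, from 26 and 8 reads. Its ratio of 2.77 had an interval from 0.854 to 11.6, too wide at this depth to tell the libraries apart. Its relative Dlk1, also called Pref-1 and known as an inhibitor of adipogenesis, had 0.185 and 0.300 with a ratio of 0.616 (0.334 to 1.12). The pair differed in opposite directions, and neither interval excluded 1. The 2 miR-16 matches printed above are in Dlk2, for which this depth gives no difference to read.

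Hes1 was the main Notch target gene measured. Hes1 (ENSMUSG00000022528, chr16:30064384-30067796, plus strand), a repressor of the basic helix-loop-helix class, had an FPKM of 3.24 with PRP and 2.37 in the control, from 265 and 165 reads. With a ratio of 1.37 (1.03 to 1.82) it was, beside Notch1, the other gene of the 10 whose interval lay above 1. The lower bound is close to 1, and the interval includes 1 at a level of 99%. On the log2(FPKM + 1) scale, which understates changes of low genes, the difference was 0.33.

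The HEY genes, repressors related to HES1, were all low. Hey1 (ENSMUSG00000040289, chr3:8663359-8667256, minus strand) had an FPKM of 0.496 with PRP and 0.305 in the control, from 65 and 34 reads, and a ratio of 1.63 (0.879 to 3.12). Hey2 (ENSMUSG00000019789, chr10:30832359-30842801, minus strand), whose promoter window holds the RBPJ motif 2 times, had 0.0760 and 0.0255 from 14 and 4 reads, and its ratio of 2.98 had an interval from 0.567 to 29.4. Heyl (ENSMUSG00000032744, chr4:123233556-123249875, plus strand) had 0.00975 from 2 reads in the PRP library and none in the control library, where the floor of 3 fragments is an FPKM of 0.0344. All 3 were listed higher in the PRP library, and for none was the difference detectable at this depth.

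Within the HES and HEY family, Hes6 and not Hes1 was highest. Hes6, which counters HES1 in neural and muscle precursors, had an FPKM of 5.18 with PRP and 5.78 in the control with a ratio of 0.896 (0.726 to 1.11). It made up 53.5% and 64.9% of the summed FPKM of 9 HES and HEY genes, and Hes1 33.5% and 26.6%. Hey1 made up 5.12% and 3.42%, Hey2 0.784% and 0.286%, and Heyl 0.101% and 0%. The family summed to 9.69 with PRP and 8.91 in the control.

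**Figure D2:**
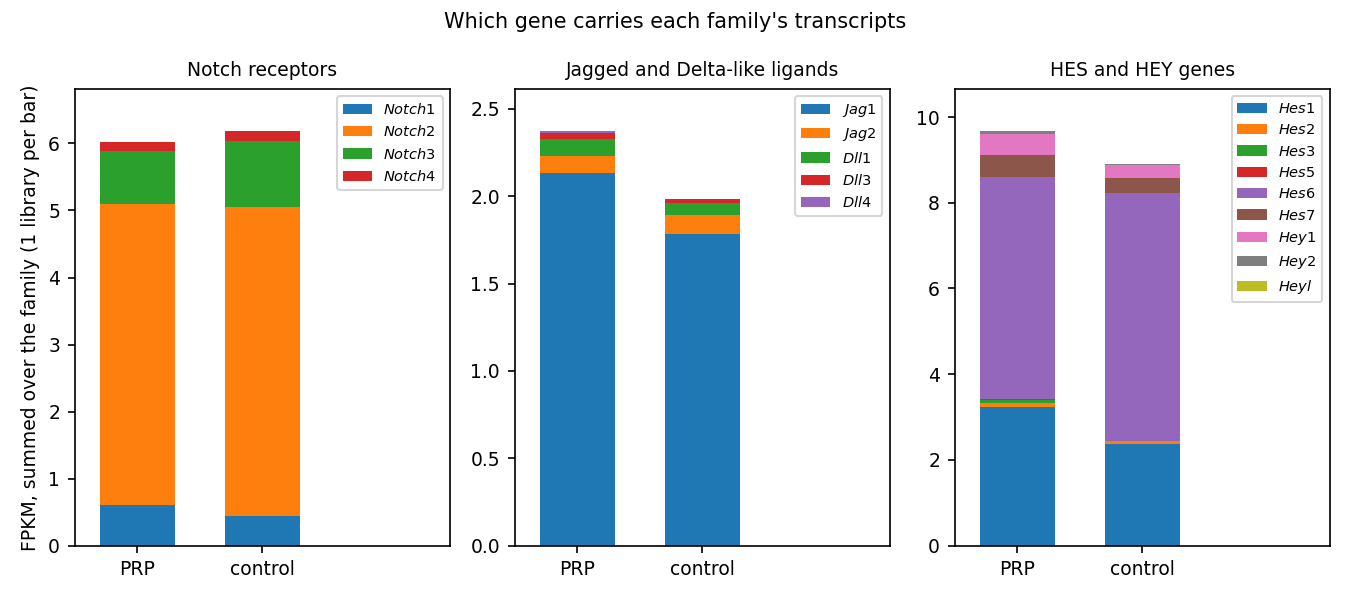
FPKM of the receptors, of the ligands and of the HES and HEY genes, stacked by gene within each family in the PRP and control libraries. Notch2 held 74.4% and 74.5% of the receptors, Jag1 89.8% and 89.95% of the ligands, and Hes1 33.5% and 26.6% of the HES and HEY genes.

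Nrarp encodes an ankyrin protein that limits Notch output by aiding the loss of the intracellular part. Nrarp (ENSMUSG00000078202, chr2:25180758-25183339, plus strand) had an FPKM of 0.0386 with PRP and 0.0681 in the control, from 4 and 6 reads. Both libraries were at or under a floor of 3 fragments, so no ratio is given. The antisense gene Gm38287 covers 79.4% of the Nrarp exons and also had 4 and 6 reads, so the reads of these genes cannot be told apart. The miR-16 and let-7f matches printed above are in Nrarp, for which this depth gives no difference to read.

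The order of the levels was the same in both libraries down to the seventh gene. Notch2 was highest, followed by Hes1, Jag1, Notch3, Notch1, Hey1 and Dlk2, then by Hey2, Nrarp and Heyl in the PRP library and by Nrarp, Hey2 and Heyl in the control library. In the PRP library the counting intervals of Notch2, Hes1, Jag1 and Notch3 were clear of one another, and so were those of Dlk2 and Hey2, while neighbours overlapped for Notch3 and Notch1, Notch1 and Hey1, Hey1 and Dlk2, Hey2 and Nrarp, and Nrarp and Heyl. In the control library Hes1 and Jag1 overlapped, as did every pair of neighbours from Notch1 down. Against all genes with reads, Notch2 stood above 75.1%, Hes1 above 68.6% and Jag1 above 63.6%, whereas Hey2 stood above 19.6%, Nrarp above 20.2% and Heyl above 0.816%.

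Of the 8 genes with a ratio, 6 were higher in the PRP library and 2 lower. Among the 18970 genes with whole reads and more than 3 fragments in a library, 52.4% were higher and 47.6% lower. The interval lay above 1 for Notch1 and Hes1, below 1 for none, and included 1 for 6. Over all 26406 genes with whole reads, the interval lay above 1 for 14.6% and below 1 for 13.9%. Unlike the 8, these include genes with no more than 3 fragments in either library, which can hardly have an interval off 1. Those shares are therefore low for a comparison with the 8. Plain ratios of at least 1.5 were those of Dlk2, Hey1 and Hey2, the 3 with the fewest reads among the 8, and 16.8% of the 18970 genes had such a ratio.

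**Figure D3:**
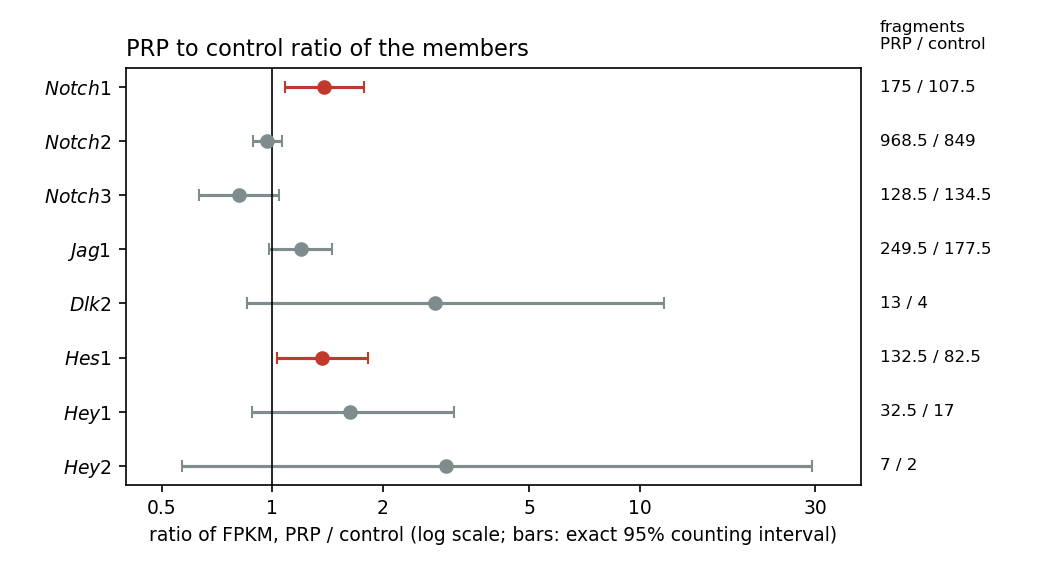
Ratio of PRP to control FPKM on a log axis for the 8 genes with a ratio, with the exact 95% interval from fragment numbers. The intervals of Notch1 and Hes1 lie above 1, and those of Dlk2 and Hey2 are the widest.

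Differences on the log2(FPKM + 1) scale were read only above a mean FPKM of 1, which 3 of the 10 passed: Notch2 at -0.04, Jag1 at 0.17 and Hes1 at 0.33. The other 7 are too low to be read on that scale. None of the 3 was past 1.5-fold, and of the 13401 genes tested 6.15% were past it higher and 4.57% lower. Their median was 0.17, beside 0.01 for all genes tested, of which 95% lay between -0.74 and 0.89. The intervals of the 12369 genes past the filter with whole reads lay above 1 in 26.1% and below 1 in 26.1%, and 1 of the 3 Notch genes, Hes1, lay above.

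The other genes of the pathway, a list of 55 that covers the rest of the machinery, are given next by direction. All 55 were measured, 36 passed the filter, and of these 13 were higher and 23 lower, with a median of -0.07, beside 50.9% higher and 49.1% lower among the 13401 genes tested. None of the 6 other ligands passed it, nor did Notch4. The interval lay above 1 for 8 of the 36 and below 1 for 14, beside 26.1% each way over all genes past the filter. None was past 1.5-fold higher, and 1 was past it lower.

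That gene was Lfng, a fringe sugar transferase that extends the O-fucose of Notch receptors and changes which ligands they answer. Lfng (chr5:140607320-140615545, plus strand) had an FPKM of 1.39 with PRP and 4.63 in the control, from 140 and 396 reads. Its ratio was 0.301 (0.226 to 0.397), a difference of -1.23 on the log2(FPKM + 1) scale. The interval was far from 1, although no replicate shows how Lfng varies between cultures.

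Other enzymes that put sugars on Notch were chosen after their values were seen, since they complete that list of 5. Rfng, a second fringe, had 1.76 with PRP and 3.08 in the control with a ratio of 0.572 (0.431 to 0.755). Pofut1, which adds the O-fucose that fringes extend, had 2.43 and 3.43 with a ratio of 0.708 (0.626 to 0.800). Poglut1, which adds O-glucose, had 2.87 and 2.41 with a ratio of 1.19 (0.983 to 1.44), and Mfng, the remaining fringe, had no reads. Of the 4 measured above 0, 3 were lower, each with an interval below 1, and the median of the 4 on the log2 scale was -0.47. Among all genes past the filter, 49.1% were lower and 26.1% had an interval below 1.

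The genes that cut the receptors were lower in 6 of 8 tested, with a median of -0.12 and 4 intervals below 1, where 49.1% of all genes tested were lower and 26.1% had an interval below 1. Furin, the protease of the first cut in the secretory pathway, had 3.17 with PRP and 4.78 in the control and a ratio of 0.662 (0.593 to 0.739). Adam10, the main protease of the ligand-induced cut and the highest of the list, had 18.2 and 19.7 and a ratio of 0.922 (0.862 to 0.986).

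The ubiquitin ligases and Numb proteins had 2 higher and 5 lower of 7 tested, with a median of -0.05, where 49.1% of all genes tested were lower. The interval lay above 1 for 1 and below 1 for 2 of the 7, beside 26.1% each way over all genes past the filter. Numb, an endocytic inhibitor of Notch and the highest of the list, had 13.5 with PRP and 12.9 in the control and a ratio of 1.05 (0.959 to 1.15). Dtx3, a Deltex-family ligase, had 4.75 and 7.40 and a ratio of 0.641 (0.541 to 0.760).

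The nuclear partners were evenly divided in direction, 8 higher and 8 lower of 16 tested, with a median of 0.01. The interval lay above 1 for 7 of the 16, below 1 for 5 and included 1 for 4. Over all genes past the filter with whole reads, the share was 26.1% each way. Rbpj (chr5:53466152-53657362, plus strand), the DNA-binding partner of every Notch receptor, had an FPKM of 14.9 with PRP and 9.86 in the control and a ratio of 1.51 (1.43 to 1.59). On the log2(FPKM + 1) scale this was 0.55, just short of 1.5-fold. The processed pseudogene Rbpj-ps3 had 4.79 and 3.15 with a ratio of 1.52 (1.14 to 2.03), and reads may be split between the gene and its processed copy, which leaves the level of Rbpj uncertain. Snw1, a co-factor of RBPJ and the highest of the list, had 46.1 and 42.3 with a ratio of 1.09 (1.05 to 1.13), and Slirp on the other strand covers 44.2% of its exons.

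**Figure D4:**
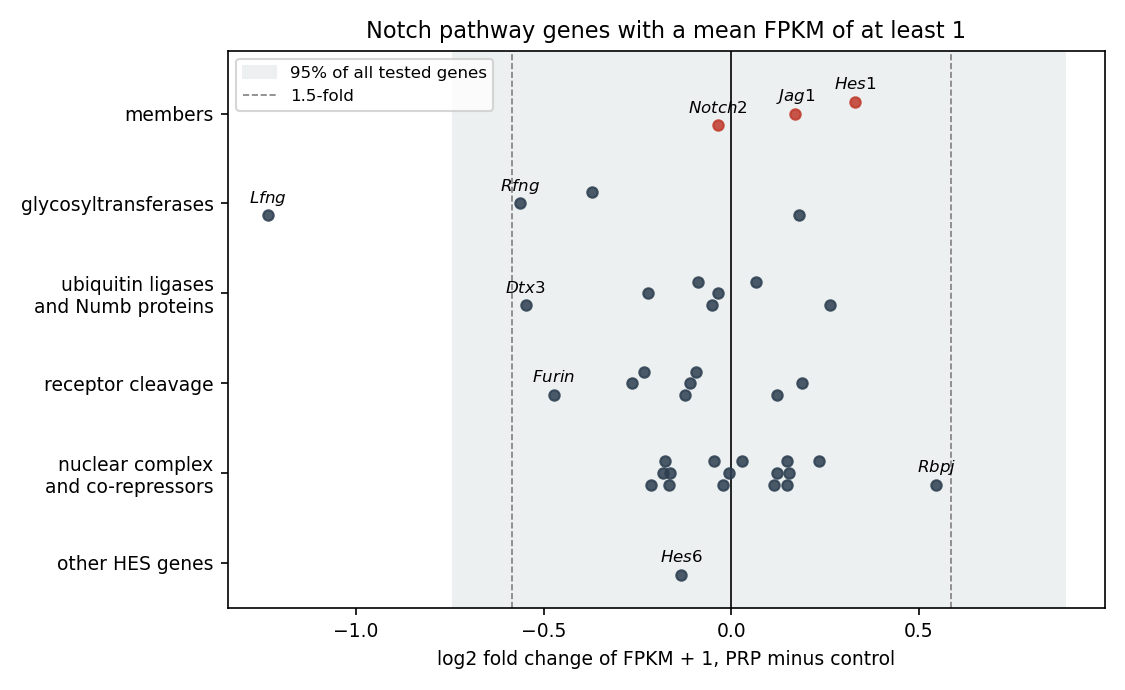
Difference in log2(FPKM + 1), PRP minus control, for the 36 other pathway genes above a mean FPKM of 1 and the 3 Notch genes that passed that filter. Lfng at -1.23 lies past the dashed line of 1.5-fold, and Rbpj at 0.55 falls just short of it.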

How the data were processed

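RNA-seq was done on 2 libraries, PRP and control, 1 per group. Per the labels, TRIzol was used for extraction and a stranded mRNA kit for the libraries. The submitters' processing notes name fastp 0.23.4, STAR 2.5.3a, featureCounts and mm10. The deposited values are FPKM that the authors computed from counts, and the annotation release, the strand setting and the formula are not given in the sources used here.

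Identifiers of 41492 of 44291 genes (93.7%) matched GENCODE M21 (GRCm38), which gave coordinates and exon lengths. With these lengths, 26406 of 28160 genes above 0 (93.8%) gave whole read numbers in each library, to within 0.001 reads. Even numbers made up 79.3% and 80.3% of read numbers up to 8, so reads were divided by 2 to give fragments. PCR duplicates are not accounted for. Fold changes were the log2(FPKM + 1) of PRP less that of control, where the mean FPKM reached 1. No count test was run. With 1 library per group no p-value is given. The procedures were tested on simulated data.

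The genes followed and the lists were chosen with earlier results of these data known. Genes named are the 10 Notch genes and, from each pathway list, the gene with the highest mean FPKM, the gene with the largest difference among those whose mean FPKM reached 1 and every gene past 1.5-fold. Of each marker list the highest marker and those at 0 in both libraries are named. Other genes, among them Pdgfra, Kdr, Cd68, Pecam1, Cdh5, Rgs5, Jag2, Dll1, Dll3 and Dll4, were chosen after their values were seen. Alternatives were other pseudocounts, filters, scalings, fold thresholds, reads in place of fragments and a level of 99%. Protein sequences were not analysed here. The result of 1 gene of the pathway list is not reported here. Python 3.11.15, NumPy 2.4.6, pandas 2.3.3, SciPy 1.17.1 and matplotlib 3.10.9 were used.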

Additional observations from a re-analysis of the deposited data

How the results depend on the processing

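No paired analysis was possible because there is just 1 library in each group, and for the same reason no replicate could be left out. Of the values of counts and medians under the alternatives, 54 stayed and 16 moved. A count stayed if it was within 1.5 times its main value, and a median if its shift was within counting error. Without a filter, the Notch genes were 7 higher and 3 lower against 2 and 1 with it, and 21 other pathway genes were higher against 13. At a mean FPKM of at least 5 no Notch gene is left and so gives no value, and the other pathway genes were 8 higher and 14 lower, with 0 past 1.5-fold lower, since fewer genes were tested. With a pseudocount of 0.1, 1 other pathway gene was past 1.5-fold higher and 3 were lower. Rescaling to a common sum, with all genes or without mitochondrial and top genes, also gave 3 lower against 1. At the lower fold threshold tried, 1 Notch gene (Hes1) was past it higher, and of the other pathway genes 1 was higher and 5 lower. Counting reads in place of fragments put 5 Notch genes above counting error (Notch1, Jag1, Dlk2, Hes1 and Hey1) and 1 below (Notch3). At a level of 99% 1 was above, Notch1. Rescaling reduces the weight of the pseudocount, and for the other shifts the cause was not tested. Of the named genes, 85 values stayed and 5 moved, with Lfng at -1.66 with a pseudocount of 0.1 and -0.59 with 5. A value of a named gene stayed if its shift was within the counting error of that gene, which low genes could hardly fail. Dlk2, at 0.23 in the main setting and 0.95 with a pseudocount of 0.1, thus counted as stayed. Under the alternatives the median over all genes was from -0.02 to 0.01. Depth limits Dlk2, Hey1, Hey2, Heyl and Nrarp most, which had at most 65 reads in a library.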

Other observations

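FAPs in adipogenic medium also carried adipocyte genes, and 4 of the 5 adipocyte markers whose mean FPKM reached 1 were higher in the PRP library. The 6 markers summed to an FPKM of 70.1 with PRP and 59.7 in the control. Fabp4, a fatty acid carrier of fat cells and the highest of them, had 40.7 and 33.6. Among all 13401 genes tested, 50.9% were higher. The interval of the ratio lay above 1 for 2 of the 5 adipocyte markers past that mean FPKM and below 1 for none. Over all genes past the filter with whole reads, it lay above 1 in 26.1% and below 1 in 26.1%. Pparg had 8.69 with PRP and 6.55 in the control with a ratio of 1.33 (1.15 to 1.53). Plin1, the lower one, had 1.73 and 2.10 with a ratio of 0.823 (0.659 to 1.03). Both were chosen after their values were seen. The paper reports by RT-PCR that exosomes from PRP of young donors lowered Pparg mRNA, the opposite direction, and the cause of this difference was not tested. Dtx4, a Deltex-family ligase chosen after its values were seen, had 8.11 with PRP and 6.60 in the control with a ratio of 1.23 (1.11 to 1.37), opposite in direction to Dtx3.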
